A study of Rattus norvegicus with 6 samples.

Results

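The stretch of rat chromosome 13 that lies 10 to 40 Mb above a 4C-seq viewpoint, towards higher coordinates, was examined fragment by fragment. It was defined by position alone, as the EcoRI fragments whose start lies in chr13:65570181-95570180 (build rn5). It held 8480 of the 34455 fragments of chromosome 13 and of the 794445 fragments of all chromosomes scored. The viewpoint is a gene promoter on chromosome 13, and its position was taken as 55570181.

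The cells were cardiac endothelial cells at passage 2, grown from SS13BN and from SS rats, with 3 libraries from each strain. SS13BN (SS-13BN/Mcwi) is a consomic strain that carries chromosome 13 of the Brown Norway rat on the SS background, so the viewpoint and all fragments described here are of Brown Norway origin in its libraries. SS (SS/JrHsdMcwi) is the Dahl salt-sensitive strain, and its chromosome 13 is its own. In both strains the remaining chromosomes are of SS origin, cells of males and females were pooled, and chromatin was fixed with 2% formaldehyde for 10 min. Whether the libraries of 1 strain stem from different animals or cultures is not in the labels, and the p-values below therefore measure the spread between libraries alone, which may be technical. The assay reads DNA contacts and no expression, so the labelled cell type was not checked against marker genes.

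In 4C-seq, fixed chromatin is cut and re-ligated, and the fragments that were ligated to the viewpoint are amplified and sequenced. Contact with the viewpoint usually becomes rarer with distance along the chromosome and is more frequent within a chromosome than between chromosomes, because each chromosome occupies its own territory in the nucleus. Over long distances, large blocks of active and of inactive chromatin tend to contact blocks of their own kind, so far contacts often come in alternating belts.

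The deposited tables give 1 score per fragment and no reads in this stretch. The score sets the captured fragments among 37 neighbours against those of a local background of 3000 fragments, and the captured or not captured state of each fragment was solved from the run of scores. A captured fragment is one that the score counts as hit. The libraries called SS13BN 3 and SS 3 list chromosome 13 at 0 throughout, so 2 libraries per strain were used. Outside chromosome 13, 9.92% and 17.4% of 759990 fragments were captured in SS13BN 1 and SS13BN 2, and 12.3% and 9.99% in SS 1 and SS 2. SS13BN 2 thus had the highest overall capture, and levels are therefore also given relative to each library's own level.

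Across the stretch, 20.1% of fragments were captured in SS13BN 1 (95% Wilson interval 19.3% to 21%) and 30.8% in SS13BN 2 (29.8% to 31.8%). In SS 1 the share was 21.4% (20.6% to 22.3%), and in SS 2 it was 21.2% (20.3% to 22.1%). The intervals cover counting error only. They treat fragments as independent, and since captured fragments cluster, they are too narrow even for that. SS13BN 2 stood alone and the other 3 libraries lay close together. Relative to the library's share on other chromosomes, capture was 2.03 and 1.77 times as high in SS13BN 1 and SS13BN 2, and 1.73 and 2.12 times as high in SS 1 and SS 2. The stretch supplied 26.1% and 27.7% of all captures on chromosome 13 in SS13BN, against 26.9% and 26.6% in SS.

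Beyond the dense zone around the viewpoint, capture in 3 broad parts of the upper side showed no steady decline with distance. At 2.7 to 10 Mb above the viewpoint, nearer than the stretch, 19.0% and 29.2% of fragments were captured in SS13BN and 17.4% and 18.7% (SS 1 and SS 2) in SS. Beyond 40 Mb above the viewpoint, as far as the chromosome end, the shares were 21.2% and 31.0% in SS13BN and 21.4% and 21.4% in SS. In every library the share of the stretch was above that of the nearer part and slightly below that of the part beyond it. Counted per Mb of genome the order was another one. The stretch had 56.9 and 86.9 captured fragments per Mb in SS13BN, against 53.7 and 78.7 beyond it and 58.5 and 90.1 nearer to the viewpoint. In SS it had 60.5 and 59.9 per Mb, against 54.4 and 54.3 beyond it and 53.7 and 57.6 nearer. Per Mb the stretch was thus above the part beyond it in every library, and below the nearer part in both SS13BN libraries.

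Within the stretch, capture rose and fell in belts that all 4 libraries shared. In 60 windows of 500 kb, with 95 to 185 fragments each and a median of 138.5, the relative capture of a window is its captured share divided by the share of the same library over the whole stretch. It was above 1 in every library in 19 windows and below 1 in every library in 30 windows, and 11 windows lay on both sides of 1. Mean relative capture over the libraries ran between 0.502 and 2.03. The plot of relative capture by window shows 1 broad crest at 18 to 23.5 Mb, a jagged rise around 28 to 34 Mb and a short peak at 38 to 39 Mb, with low ground between them.

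**Figure D1:**
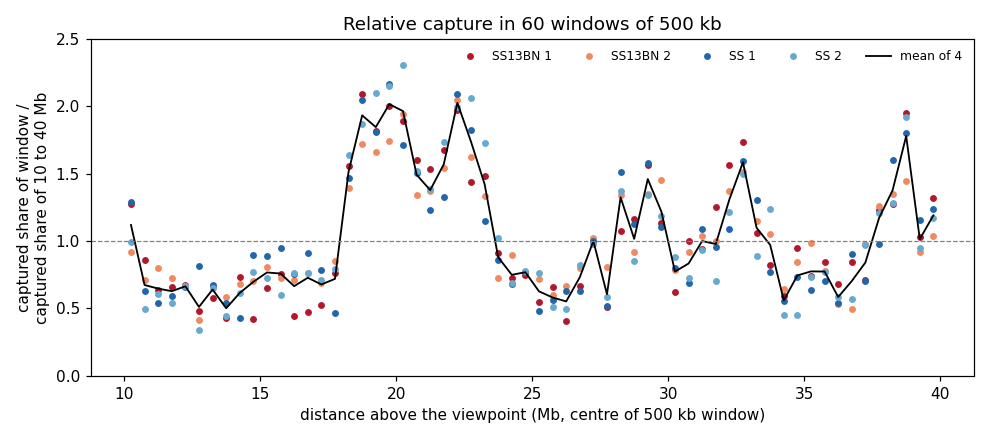
Relative capture (captured share of a window divided by that of the stretch in the same library, no unit) in 60 windows of 500 kb against distance above the viewpoint in Mb. Points are the 4 libraries, the line is their mean and the dashed line marks 1. All 4 libraries lie above 1 in each of the 11 windows at 18 to 23.5 Mb and below 1 in each of the 15 windows at 10.5 to 18 Mb.

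The bounds of the belts were chosen after this profile was seen, so they are a description with no test. The first low belt, at 10.5 to 18 Mb (chr13:66070181-73570180), had 12.2% and 21.5% of its 2319 fragments captured in SS13BN, against 15.05% and 13.4% in SS. Its relative capture was 0.660 ± 0.0483 (SD, n = 4 libraries), and all 15 windows were below 1 in every library. At 1.25 ± 0.0556 times the level of the other chromosomes (SD, n = 4), it was the belt nearest to that level.

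The first high belt, at 18 to 23.5 Mb (chr13:73570181-79070180), had 34.9% and 49.6% of its 1394 fragments captured in SS13BN, against 35.9% and 39.7% in SS. The mean was 40.05% ± 6.73 (SD, n = 4), or 1.72 ± 0.112 times the level of the stretch. All 11 windows were above 1 in every library. The belt held 16.4% of the fragments of the stretch but 28.5% and 26.5% of its captures in SS13BN, and 27.5% and 30.8% in SS. Relative to other chromosomes, its capture was 3.52 and 2.85 times as high in SS13BN and 2.90 and 3.98 times as high in SS. Where a belt was set from the SS libraries alone, as the longest row of windows above 1 in both, it had the same bounds. Its 11 windows ran at 1.44 to 2.09 in SS13BN 1 and 1.33 to 2.05 in SS13BN 2. Since all 11 were already known to be above 1 in every library, this is no independent support.

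Both edges of the crest were crossed within neighbouring windows. At 17.5 to 18 Mb, 15.4% and 26.2% of 149 fragments were captured in SS13BN, against 10.1% and 16.8% in SS. In the next window, at 18 to 18.5 Mb, 31.4% and 43.0% of 121 fragments were captured in SS13BN, against 31.4% and 34.7% in SS. All 4 libraries thus stepped up between these neighbours. On the far side, at 23 to 23.5 Mb, 29.9% and 41.0% of 134 fragments were captured in SS13BN and 24.6% and 36.6% in SS. At 23.5 to 24 Mb the shares were 18.4% and 22.4% of 125 fragments in SS13BN and 18.4% and 21.6% in SS. The far edge was lower in every library but shallower in SS 1. Steps of 100 kb show the crest as several humps with dips between them, and with more scatter, since each step holds few fragments.

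**Figure D2:**
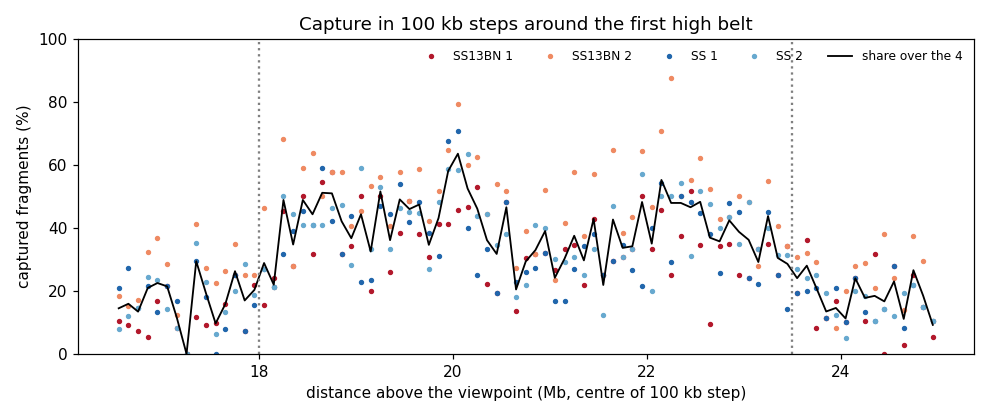
Captured fragments (%) in 100 kb steps from 16.5 to 25 Mb above the viewpoint. Points are the 4 libraries, the line is the share over the 4 together, and the dotted lines mark 18 and 23.5 Mb. Between the dotted lines most shares over the 4 run higher than on both sides. The ranges overlap, with 20.5% at 20.6 Mb inside the lines and 29.4% at 17.3 Mb outside them. At 17.2 Mb no library captured a fragment.

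Farther out the belts were shallower in the mean over libraries. The second low belt, at 23.5 to 27 Mb, had a relative capture of 0.690 ± 0.0417 (SD, n = 4), with 6 of 7 windows below 1 in every library. From 28 to 34 Mb capture was mixed, at 1.13 ± 0.0407 (SD, n = 4), with 5 of 12 windows above 1 and 1 below 1 in every library. The third low belt, at 34 to 37.5 Mb, stood at 0.718 ± 0.0525 (SD, n = 4), with all 7 windows below 1. The last high belt, at 38 to 39 Mb, stood at 1.57 ± 0.128 (SD, n = 4) in both of its 2 windows together. High and low belts therefore alternated along the stretch. The first crest was the highest of these belts in the mean and in 3 of 4 libraries. In SS 1 the last high belt stood at 1.70 against 1.67 in the first crest, and the second and the third low belt, at 0.653 and 0.679, were lower than the first, at 0.703.

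Of the 8 windows with the highest mean relative capture, 6 lay in the first high belt. The highest, chr13:77570181-78070180 at 22 Mb, had 46 and 73 of 116 fragments captured in SS13BN, against 52 and 49 in SS, and its relative capture was 2.03 ± 0.0551 (SD, n = 4). The next, chr13:75070181-75570180 at 19.5 Mb, had 60 and 80 of 149 fragments captured in SS13BN and 69 and 68 in SS, a relative capture of 2.02 ± 0.195 (SD, n = 4). Its neighbour, chr13:75570181-76070180, had 53 and 83 of 139 captured in SS13BN and 51 and 68 in SS, at 1.96 ± 0.2497 (SD, n = 4). These windows differed from each other by less than the SD of the second or the third, though not in every pair by less than that of the first. The windows at 18.5, 19 and 22.5 Mb followed in the same belt, at 1.93, 1.85 and 1.74. Outside the belt stood 2 windows of this group. The window chr13:94070181-94570180, at 38.5 Mb, had 53 and 60 of 135 fragments captured in SS13BN and 52 and 55 in SS, at 1.78 ± 0.233 (SD, n = 4). The window chr13:88070181-88570180, at 32.5 Mb, had 45 and 60 of 129 captured in SS13BN and 44 and 41 in SS, at 1.58 ± 0.107 (SD, n = 4).

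The 5 lowest windows lay in the low belts. The lowest, chr13:69070181-69570180 at 13.5 Mb, had 12 and 25 of 138 fragments captured in SS13BN and 16 and 13 in SS, a relative capture of 0.502 ± 0.0759 (SD, n = 4). The window chr13:68070181-68570180 at 12.5 Mb had 16 and 21 of 166 captured in SS13BN and 29 and 12 in SS, at 0.512 ± 0.210 (SD, n = 4). That window was the least alike among libraries of the 5, with SS 1 at 0.816 and SS 2 at 0.341. Windows at 26, 34 and 25.5 Mb followed, at 0.552, 0.560 and 0.582.

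Capture varied with fragment length and was highest at 4 to 8 kb in each library, so the windows were also set against the capture that their own fragment lengths would give at the rates of the stretch. With this adjustment, 19 windows were above 1 and 29 below 1 in every library, and the same 19 and 28 windows were so both ways. The relative capture of the first low, first high, second low, mixed, the third low and last high belts became 0.674, 1.70, 0.691, 1.11, 0.714 and 1.58. Lengths therefore moved no belt across 1. Across the 60 windows, relative capture had a Spearman correlation of -0.421 with the number of fragments per window and 0.244 with distance. Neighbouring windows are not independent, and these values only describe the profile.

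The deposited scores pick out short segments, most of them inside the high belts. The highest score in the stretch was 5.27 in SS13BN 1 and 5.78 in SS13BN 2, against 6.70 in SS 1 and 6.03 in SS 2. It lay at 18.7 and 20.05 Mb in SS13BN 1 and SS13BN 2, and at 20.02 and 38.6 Mb in SS 1 and SS 2. A score of at least 2 was reached by 15.3% and 15.2% of fragments in SS13BN, against 14.2% and 13.7% in SS. Neighbouring scores share most of the 37 fragments of their windows, so runs of high scores are expected to be long and were counted as runs only from 10 fragments on.

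There were 9 runs with a score of at least 2 in all 4 libraries, which together held 257 fragments over 949.5 kb. Of these, 5 lay between 18.6 and 20.2 Mb, 2 between 22.1 and 22.6 Mb, 1 at 29.2 Mb and 1 at 38.5 Mb. The longest and highest, chr13:75485465-75724972, spanned 240 kb and had 35 and 48 of its 66 fragments captured in SS13BN and 43 and 42 in SS. Its mean score was 4.52, and 63.6% of its fragments were captured over the 4 libraries. The run at 38.5 Mb, chr13:94031395-94266473, spanned 235 kb and had 27 and 30 of 64 fragments captured in SS13BN and 26 and 30 in SS, with a mean score of 3.77. These 2 runs held about as many fragments as each other, and the other 7 were shorter.

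The remaining shared runs were narrow. They spanned between 20.4 kb (chr13:74830903-74851254, mean score 3.35) and 138 kb (chr13:75106422-75244539, mean score 3.13). The others were chr13:74160560-74219002 with a mean score of 3.16, chr13:74250777-74345000 with 3.39, chr13:77698298-77742105 with 3.41, chr13:78070028-78112095 with 2.98 and chr13:84751581-84829470 with 3.28. A segment with few captures of its own can reach such a score from its surroundings: in chr13:74160560-74219002, 31.8% of fragments were captured. The runs are described with no test, since the scores chose them.

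Runs were also found in each strain by itself. SS13BN had 19 runs with a score of at least 2 in both of its libraries, and 9 of these (47.4%) overlapped a run of SS. SS had 16 runs, of which 9 (56.3%) overlapped a run of SS13BN. The highest run of SS13BN with no overlap, chr13:77812024-77841130, had mean scores of 2.18 and 4.96 in SS13BN, against 1.51 and 3.18 in SS. The next, chr13:88140061-88192851, had mean scores of 3.49 and 2.72 in SS13BN and 2.01 and 2.51 in SS. The highest of SS with no overlap, chr13:65892183-65973213 at 10.3 Mb, had mean scores of 2.09 and 1.66 in SS13BN, against 2.99 and 3.48 in SS. In each of these 3, both libraries of the other strain had mean scores above 0. Other runs of SS13BN with no overlap were lower in SS. One of them, chr13:75777582-75875654, had mean scores of 3.11 and 2.45 in SS13BN, against -0.46 and 3.04 in SS. Another, chr13:86556277-86733417, had 2.76 and 2.49 in SS13BN, against 0.855 and 0.178 in SS. Both were chosen after their values were seen, for their low scores in SS, and are no test of a strain difference.

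Low scores formed runs as well. With a threshold of -1 in all 4 libraries, which was chosen after the scores were seen, there were 28 runs of 10 or more fragments, 636 fragments over 2190 kb in all. Only 2 places had 30 or more neighbouring fragments with no capture in any library. The longer, chr13:72733911-72887674 at 17.2 Mb, covers 154 kb and 30 fragments just below the lower edge of the first crest. The other, chr13:82121567-82218128 at 26.6 Mb, covers 96.6 kb and 39 fragments. Both places lie in low belts, and since they were chosen for their lack of captures, no limit on their share is given.

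At the level of single fragments the libraries shared much less than at the level of windows. Of the 8480 fragments, 4179 (49.3%) were captured in no library, 2009 (23.7%) in 1, 1296 (15.3%) in 2, 656 (7.74%) in 3 and 340 (4.01%) in all 4. The median length was 1953 bp for fragments captured in none and 4040 bp for those captured in all. Fragments captured in more libraries thus had the longer median length. Of the fragments captured in SS13BN 1, 55.4% were also captured in SS13BN 2, which captured 30.8% of all fragments. Of those captured in SS 1, 40.2% were also captured in SS 2, which captured 21.2% of all fragments. In both strains, fragments captured in 1 library were thus captured in the other more often than fragments in general. Sharing was not particular to a strain. Of the fragments captured in SS 2, 65.8% were also captured in SS13BN 2 and 39.3% in SS13BN 1. Of those captured in SS 1, 54.1% were also captured in SS13BN 2 and 41.7% in SS13BN 1. SS13BN 2 and SS13BN 1 captured 30.8% and 20.1% of all fragments.

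Over the 60 windows the libraries had nearly the same order. Spearman's correlation of captured shares was 0.873 between the SS13BN libraries and 0.8305 between the SS libraries. Between strains it was 0.821 and 0.897 for libraries of the same number, and 0.813 and 0.806 for libraries of different number. Both pairs within a strain were above 3 of the 4 pairs between strains, and the highest of the 6 pairs was SS13BN 2 with SS 2. In numbers of fragments, 225 were captured in both SS13BN libraries and neither SS library, and 115 in both SS libraries and neither SS13BN library. Captured in both libraries numbered 2 and neither numbered 1 were 423, and in both numbered 1 and neither numbered 2 were 181. These counts move with the overall capture of each library, which was highest in SS13BN 2.

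Capture was more frequent next to a captured fragment than next to one not captured. In SS13BN 1, 33.6% of the fragments next to a captured one were captured, against 16.7% next to one not captured, and in SS13BN 2 these were 41.5% and 26.0%. They were 33.5% and 18.1% in SS 1, and 35.5% and 17.4% in SS 2. At a spacing of 200 fragments the shares were still 23.0% and 19.3% in SS13BN 1 and 24.9% and 20.2% in SS 2. Neighbouring fragments share a cut site, which the shares at a spacing of 1 fragment do not separate from contact.

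The stretch was captured more often than its mirror image at 10 to 40 Mb below the viewpoint, chr13:15570181-45570180, in all 4 libraries. In SS13BN, 20.1% and 30.8% of fragments were captured in the stretch, against 11.4% and 18.4% of 10848 fragments in the mirrored stretch. In SS the shares were 21.4% and 21.2% in the stretch, against 12.3% and 11.9% in the mirrored stretch. The ratio, the stretch over the mirrored stretch, was 1.77 and 1.67 in SS13BN and 1.74 and 1.78 in SS. Its mean was 1.74 ± 0.0502 (SD, n = 4), a log2 difference of 0.80, higher in 4 of 4 libraries, with p = 0.125 in the exact two-sided sign permutation test, which is the smallest p that 4 libraries allow. The contrast of both sides at 20 to 40 Mb was known from earlier results, so the mean over the whole distance is no independent evidence of it. The mirrored stretch holds densely cut windows, chr13:38070181-38570180 with 503 fragments and chr13:38570181-39070180 with 762. In the former, 19 and 28 fragments were captured in SS13BN, against 23 and 24 in SS. In the latter these were 9 and 10 in SS13BN, against 11 and 6 in SS. These dense windows lower the mirrored shares, and ratios without them were not computed.

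The sides were not ordered the same way at every distance. At 10 to 15 Mb the stretch was below its mirror image, with 13.5% and 21.1% of fragments captured in the stretch in SS13BN, against 19.2% and 29.5% below the viewpoint. In SS these were 15.1% and 13.03% in the stretch, against 18.5% and 19.4% below. At 15 to 20 Mb the order was turned, with 21.9% and 33.7% in the stretch in SS13BN, against 9.55% and 13.1% below, and 26.0% and 25.3% in the stretch in SS, against 10.7% and 9.82% below. The ratio was thus under 1 in 4 of 4 libraries in the first step, at 0.670 to 0.818, and over 1 in 4 of 4 libraries in each later step.

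From 15 Mb on, the ratio was highest at 15 to 20 Mb in 3 of 4 libraries, where it was 2.30 to 2.58 over all 4. At this distance the side below includes the dense windows at chr13:38070181-39070180, which lower its share. They hold 503 and 762 of its 2576 fragments but few of its captures. The rank of this step therefore rests on them and is no result on contact by distance. Ratios without them were not computed. The ratio was 1.95 to 2.497 at 20 to 25 Mb, 1.55 to 1.84 at 25 to 30 Mb, 1.91 to 2.12 at 30 to 35 Mb and 1.76 to 2.10 at 35 to 40 Mb. Mean shares in the stretch, over the 4 libraries, were 15.7%, 26.7%, 32.4%, 21.01%, 23.3% and 23.4% in the 6 steps from near to far. They were 21.7%, 10.8%, 15.05%, 12.6%, 11.8% and 11.9% below the viewpoint. Capture in the stretch therefore peaked at 20 to 25 Mb, while below the viewpoint its highest value was at 10 to 15 Mb.

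**Figure D3:**
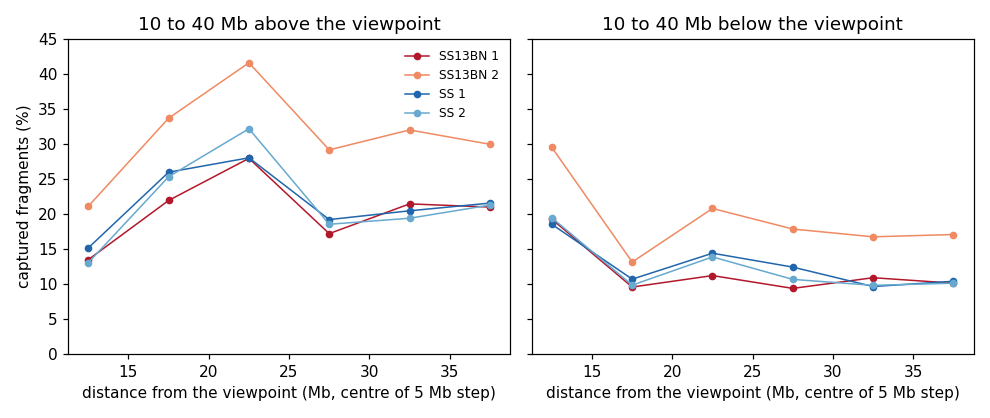
Captured fragments (%) in steps of 5 Mb by distance from the viewpoint in Mb, above it (left) and below it (right). Lines are the 4 libraries. Above the viewpoint every library peaks at 20 to 25 Mb, and below it every library is highest at 10 to 15 Mb.

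By belt, the ratio to the mirrored distance was over 1 in every library in 4 of the 6 belts. In the first high belt capture was 3.84 and 2.86 times that of the mirrored distance in SS13BN, and 3.04 and 3.60 times in SS. The last high belt gave 2.21 and 2.14 times in SS13BN and 2.57 and 3.46 times in SS, and the mixed belt 2.31 and 2.14 times in SS13BN and 2.24 and 2.19 times in SS. In the first low belt it was 0.907 and 1.13 times in SS13BN and 1.09 and 0.957 times in SS. The second low belt gave 0.987 and 1.03 times in SS13BN and 0.870 and 1.10 times in SS. The first and second low belts thus had libraries on both sides of 1, while the third low belt was over 1 in every library, at 1.46 to 1.58 times. The mirrored distance of the first low belt includes the dense windows at chr13:38070181-39070180, which lower its share and raise the ratio. With 503 and 762 fragments and few captures, they weigh heavily on this ratio. That libraries lay on both sides of 1 in the first low belt therefore rests on them. Ratios without them were not computed. Of the 187 windows of chromosome 13 over 10 Mb from the viewpoint with at least 20 fragments, 60 (32.1%) are in the stretch. It held 4 of the 10 windows of highest mean capture, 10 of the highest 20 and 0 of the lowest 20. The mirrored stretch was more uneven, with mean relative capture between 0.0896 and 3.98 times its own level.

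The fragments of the stretch are longer, with a median of 2294 bp against 1586 bp in the mirrored stretch. Fragments under 0.5 kb made up 16.4% of the stretch and 27.8% of the mirrored stretch. Capture was compared within 6 length classes for this reason. In the shortest class, 12.9% ± 2.32 of fragments were captured in the stretch and 5.10% ± 0.893 in the mirrored stretch (SD, n = 4 each). At 4 to 8 kb the shares were 29.8% ± 7.10 in the stretch and 19.3% ± 4.38 in the mirrored stretch, and at 8 kb or more they were 25.2% ± 4.27 in the stretch and 19.2% ± 4.11 in the mirrored stretch (SD, n = 4 each). The stretch was higher in all 6 classes and all 4 libraries, by 1.25 to 3.03 times. The mirrored classes include the dense windows at chr13:38070181-39070180, with 503 and 762 fragments. How far these windows set the share and the low capture of short fragments in the mirrored stretch was not tested. With both sides set to 1 mix of lengths, the ratio was 1.62 and 1.52 in SS13BN and 1.60 and 1.63 in SS, lower than without this step in each library. Counted as captured fragments per Mb of genome, which also takes in the smaller number of fragments in the stretch, the ratio averaged 1.36 ± 0.0392 (SD, n = 4), and all 4 libraries remained above 1.

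**Figure D4:**
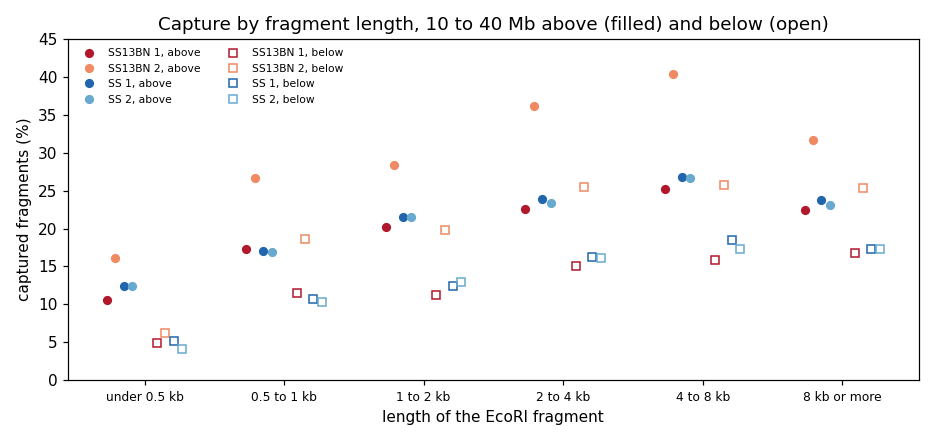
Captured fragments (%) by length class of EcoRI fragments in kb. Filled circles are the stretch above the viewpoint and open squares the mirrored stretch below it, in the 4 libraries. In every class each library's circle lies above its own square.

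The design asks whether the origin of chromosome 13 changes its contacts. For the stretch as a whole, the captured share averaged 25.4% ± 7.52 in SS13BN and 21.3% ± 0.158 in SS (SD, n = 2 each), a difference of 4.15 percentage points with p = 1 in the exact two-sided permutation test. With 2 libraries each, that test cannot go below 0.333. Relative to the other chromosomes, the level was 1.90 ± 0.187 in SS13BN and 1.93 ± 0.273 in SS (SD, n = 2 each), a difference of -0.03 with exact p = 1. The libraries of the strains overlapped in both measures. Relative to all of chromosome 13 over 10 Mb from the viewpoint they did not overlap, with means of 1.30 in SS13BN and 1.31 in SS, a difference of -0.02 with exact p = 0.333, the smallest possible. At this number of libraries no strain difference of the whole stretch passed a test.

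Windows of 500 kb were compared on the log2 scale of captured fragments, scaled to equal totals of chromosome 13. At an adjusted p under 0.05 (limma, Benjamini-Hochberg), 0 of 60 windows in the stretch and 0 of 226 on the chromosome (0%) differed between strains. Unadjusted, 3 of 60 windows in the stretch and 10 of 226 on the chromosome had p under 0.05, and the smallest adjusted p in the stretch was 0.761. The libraries of the strains did not overlap in 19 of 60 windows, 14 higher and 5 lower in SS13BN, against 33.6% of the 226 windows. The share in the stretch, 31.7%, is close to that background. The log2 difference ran between -0.58 and 0.62, positive in 31 windows and negative in 29, and the median half-width of its 95% interval was 0.43. Differences below that size could not be seen in a typical window. The interval is not adjusted for the 226 windows, so passing the adjusted threshold takes a larger difference. Even the largest, 0.62, did not pass.

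The 3 windows with the smallest p lay outside the first high belt. In chr13:70070181-70570180, 14 and 36 of 166 fragments were captured in SS13BN, against 32 and 27 in SS, a log2 difference of -0.58 (SE 0.24) after scaling with a limma adjusted p of 0.761. In chr13:72070181-72570180, 17 and 42 of 179 were captured in SS13BN, against 35 and 29 in SS, a log2 difference of -0.45 (SE 0.21, same adjusted p). In chr13:87070181-87570180, 32 and 39 of 127 were captured in SS13BN, against 26 and 19 in SS, a log2 difference of 0.44 (SE 0.22, same adjusted p). In the first 2 of these windows, the unscaled counts of SS13BN lay on both sides of those of SS. With 1 library left out, the 3 differences ran between -0.97 and -0.18, between -0.82 and -0.08 and between 0.22 and 0.65, so single libraries set their size. The first high belt had no window among them.

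**Figure D5:**
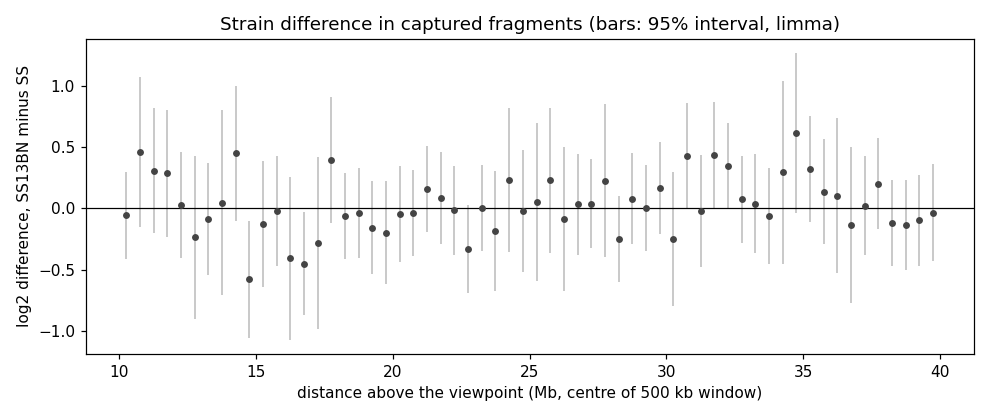
Log2 difference in scaled captured fragments, SS13BN minus SS, in 60 windows of 500 kb against distance above the viewpoint in Mb. Bars are 95% intervals from limma. Values run from -0.58 to 0.62, and no window passed the adjusted threshold.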

How the data were processed

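4C-seq libraries were made with EcoRI per the labels' protocols. The authors deposited 1 table per library with a score per fragment. Per the submitters' processing notes, CASAVA 1.8 was run and coordinates are of build rn5. A name for the aligner, read filters or scoring program is not given in the sources used here. Coordinates are as in the tables, whose first interval starts at 0, and may differ from a genome browser's by 1 base.

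The deposited score equals (k - Wp) over the root of its binomial variance, Wp(1 - p), with k captured fragments among W = 37 neighbours and p their share in a background of 3000 fragments. Solving it for captured states rebuilt 100% of windows above the viewpoint in each of 4 libraries, and the backgrounds recomputed from the states matched in 100% of those checked. On this side, between 30 and 60 windows per library allowed several solutions by themselves and were settled from their neighbours. Below the viewpoint, 21 (SS13BN 2) to 202 (SS 2) windows did so, and 1 window of SS 1 was not solved. The procedure was tested on simulated data. At the edge of the zone around the viewpoint, some fragments with reads were not counted as captured by this score.

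Tools were R 4.3.3 with limma 3.58.1, and Python 3.11.15 with scipy 1.17.1, pandas 2.3.3, numpy 2.4.6 and matplotlib 3.10.9. Windows of 500 kb were counted from the viewpoint, fragments within 10 kb of it were left out, and windows needed a mean of at least 1 captured fragment. limma with an intensity trend was fitted to log2(scaled captured fragments + 1) in 226 windows of chromosome 13. The 8 highest and 5 lowest windows by mean relative capture, the shared runs, the highest runs of single strains and the 3 windows of smallest p were named by rule. The stretch, lists and tests were chosen with earlier results of these data known. No gene or sequence is named because no annotation of rn5 was used here. Alternatives covered libraries left out, window sizes, scaling, filter, pseudocount, fragment length and score thresholds.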

Additional observations from a re-analysis of the deposited data

How the results depend on the processing

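Of 119 values under other settings, 111 kept their direction and side of the threshold, or stayed within the spread or count margin used, 5 moved and 3 were reversed. All 30 values of the belts and all 33 of the windows named in the strain comparison were among the 111, the windows in sign and side of the threshold only. The strain difference in captured share, 4.15 points, ran between -1.17 and 9.46 with 1 library left out, and was -1.17 without SS13BN 2. Relative to other chromosomes, the difference of -0.03 ran between -0.22 and 0.16, and was 0.10 without SS13BN 2 and 0.16 without SS 2. The log2 ratio to the mirrored stretch ran between 0.79 and 0.82. The 9 shared high-score runs became 3 at a threshold of 2.5, 17 at 1.5, 41 with a minimum length of 1 fragment and 22 in 3 of 4 libraries, and 11 to 13 with 1 library left out, which loosens the rule. With log odds of capture, 2 windows of chromosome 13 passed between strains and 0 in the stretch. In all 14 alternative fits, 0 windows of the stretch passed, with the lowest adjusted p, 0.376, without SS13BN 1. The 4 of these fits that leave out a library assume that the lone library of a strain varies like those of the other, and say nothing about stability. The mean deposited score could be fitted over 186 windows, those over 10 Mb away. With the replicate number as a block, 0 of 60 windows passed, 4 had an unadjusted p under 0.05, the smallest adjusted p was 0.890 and the share difference was 4.15 points with exact p = 1. Deviations of libraries of the same number correlated at 0.21 over 60 windows for both pairs. With 2 libraries a strain the equality of both values is fixed by construction, though their size and sign are not. They therefore count as 1 value, which was not tested. Whether the numbers pair the libraries is not known, and the labels name no shared batch. Depth in reads is unknown in the stretch, captured states saturate where reads are many, and 2 libraries a strain limit every comparison between strains.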
